A study of Homo sapiens with 24 samples.

Results

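AP-1 is a transcription factor made of dimers of basic leucine zipper (bZIP) proteins, in which a Jun protein pairs with a Fos protein, with a relative such as ATF3 or BATF3, or with another Jun protein. The 9 genes *JUN*, *JUNB*, *JUND*, *FOS*, *FOSB*, *FOSL1*, *FOSL2*, *ATF3* and *BATF3* were followed through 24 one-colour Agilent microarrays. They were found by the RefSeq accession of their array probes, which gave 12 of 58201 probes, 4 of them for *ATF3* and 1 for each other gene, among 31204 named genes. Several of these genes are immediate early genes, switched on within minutes by serum, growth factors and stress through MAP kinases. Jun and Fos dimers also meet the SMAD proteins, which carry the TGFβ signal, at the promoters of shared target genes, and AP-1 is known in the liver for its part in regeneration and in tumour growth.

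RNA came from PLC/PRF/5 and SNU-449, which are established lines from human hepatocellular carcinoma (HCC). Each line was kept overnight without serum and then left untreated, or treated for 16 h with recombinant human TGFβ1 at 1 ng/mL, with galunisertib (LY2157299, an inhibitor of the kinase activity of the type I TGFβ receptor) at 10 µM, or with both agents. Every one of the 8 groups had 3 independent cultures, and all groups, controls included, shared the serum starvation. The comparisons ask how each line responds to TGFβ1, to the inhibitor alone and to the inhibitor given with TGFβ1. The results hold for 1 time point and for RNA from a whole culture of 1 line, in which fewer cells expressing a gene and less RNA per cell cannot be told apart.

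Levels below are log2 of the processed intensity over the 75th percentile of the array, so that 0 is a spot as bright as that percentile, and a floor was set at -4.13. The 75th percentile lay between 144.9 and 261.6 intensity units, lowest on replicate 1 of the PLC/PRF/5 controls, and between 41.6% and 49.6% of probes were well above background. The arrays lay on 3 slides of 8, the replicate number was also the slide, and each group kept 1 position on all slides, so position and treatment cannot be told apart. A probe's level cannot be set against that of another probe, so genes are compared by their differences only. In the control cells all 10 hepatocyte markers were higher in PLC/PRF/5 (median log2 difference 7.50), and 6 of 7 mesenchymal markers were higher in SNU-449, while *FN1* was higher in PLC/PRF/5. Of the markers of other cell types, 2 of 5 leukocyte and 2 of 3 endothelial genes passed the filter on dim probes. The TGFβ-responsive genes checked the treatments, and 7 of 8 rose with TGFβ1 and fell when galunisertib was added to it in SNU-449. In PLC/PRF/5, 5 of 7 rose and 1 fell with TGFβ1, and 5 of 7 fell and 1 rose when galunisertib was added to it. Galunisertib alone lowered 6 of 8 in SNU-449 and raised 0, beside 7.43% of all genes called. In PLC/PRF/5 it lowered 2 of 7 and raised 1, beside 5.42% of all genes, so the check is weaker there. With galunisertib present, TGFβ1 still raised 4 of 8 of these genes in SNU-449 and 0 of 7 in PLC/PRF/5 by limma.

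The start regions of *JUNB*, *FOSB* and *FOS* are printed for the changes of these genes with TGFβ1. *JUNB* rose in both lines, and *FOSB* rose in SNU-449 from a level near background. *FOS* fell in PLC/PRF/5 and was near background in SNU-449. In SNU-449 *FOSB* passed the filter on dim probes only through the TGFβ1 group, so the genes are not set against each other. The printed regions are the 250 bases before each gene's start in the RefSeq table of GRCh38.p14, which matched 7 of the 9 genes. Capitals mark TATAAA and CAGAC, the latter being the letters of the SMAD binding element, on either strand. *JUNB* lies at chr19:12791236-12791485, plus strand, *FOSB* at chr19:45467746-45467995, plus strand and *FOS* at chr14:75278578-75278827, plus strand.
JUNB: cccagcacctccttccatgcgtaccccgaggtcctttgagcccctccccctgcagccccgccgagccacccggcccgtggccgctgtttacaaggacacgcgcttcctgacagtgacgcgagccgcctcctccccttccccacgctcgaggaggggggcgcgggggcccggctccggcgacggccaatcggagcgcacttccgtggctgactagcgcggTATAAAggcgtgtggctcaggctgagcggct
FOSB: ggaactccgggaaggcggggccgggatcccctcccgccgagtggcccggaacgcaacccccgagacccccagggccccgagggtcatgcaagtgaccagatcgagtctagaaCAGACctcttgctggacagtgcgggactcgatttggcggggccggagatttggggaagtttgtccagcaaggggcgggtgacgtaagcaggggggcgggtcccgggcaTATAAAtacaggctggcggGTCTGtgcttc
FOS: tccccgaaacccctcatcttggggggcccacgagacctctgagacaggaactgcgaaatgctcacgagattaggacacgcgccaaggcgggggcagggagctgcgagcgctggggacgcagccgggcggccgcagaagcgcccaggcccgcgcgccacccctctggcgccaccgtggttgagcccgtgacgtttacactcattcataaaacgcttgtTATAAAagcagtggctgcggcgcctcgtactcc
Each of the 3 windows held TATAAA once, and 10.8% of 34788 windows of this length held at least 1 match. *FOSB* held CAGAC at 2 places and *JUNB* and *FOS* at none, against 38% of all windows with at least 1 match. The AP-1 element TGACTCA (4.21% of windows) and the CArG box, the element of the serum response factor (1.17%), were found in none of the 8 windows of the 7 genes. The cyclic AMP response element TGACGTCA (1.64%) was found only in that of *JUND*. Matches are letters only and were searched on both strands. Bases further upstream and variants of these letters were not searched. A missing match therefore does not show that a promoter lacks such an element.

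**Figure D1:**
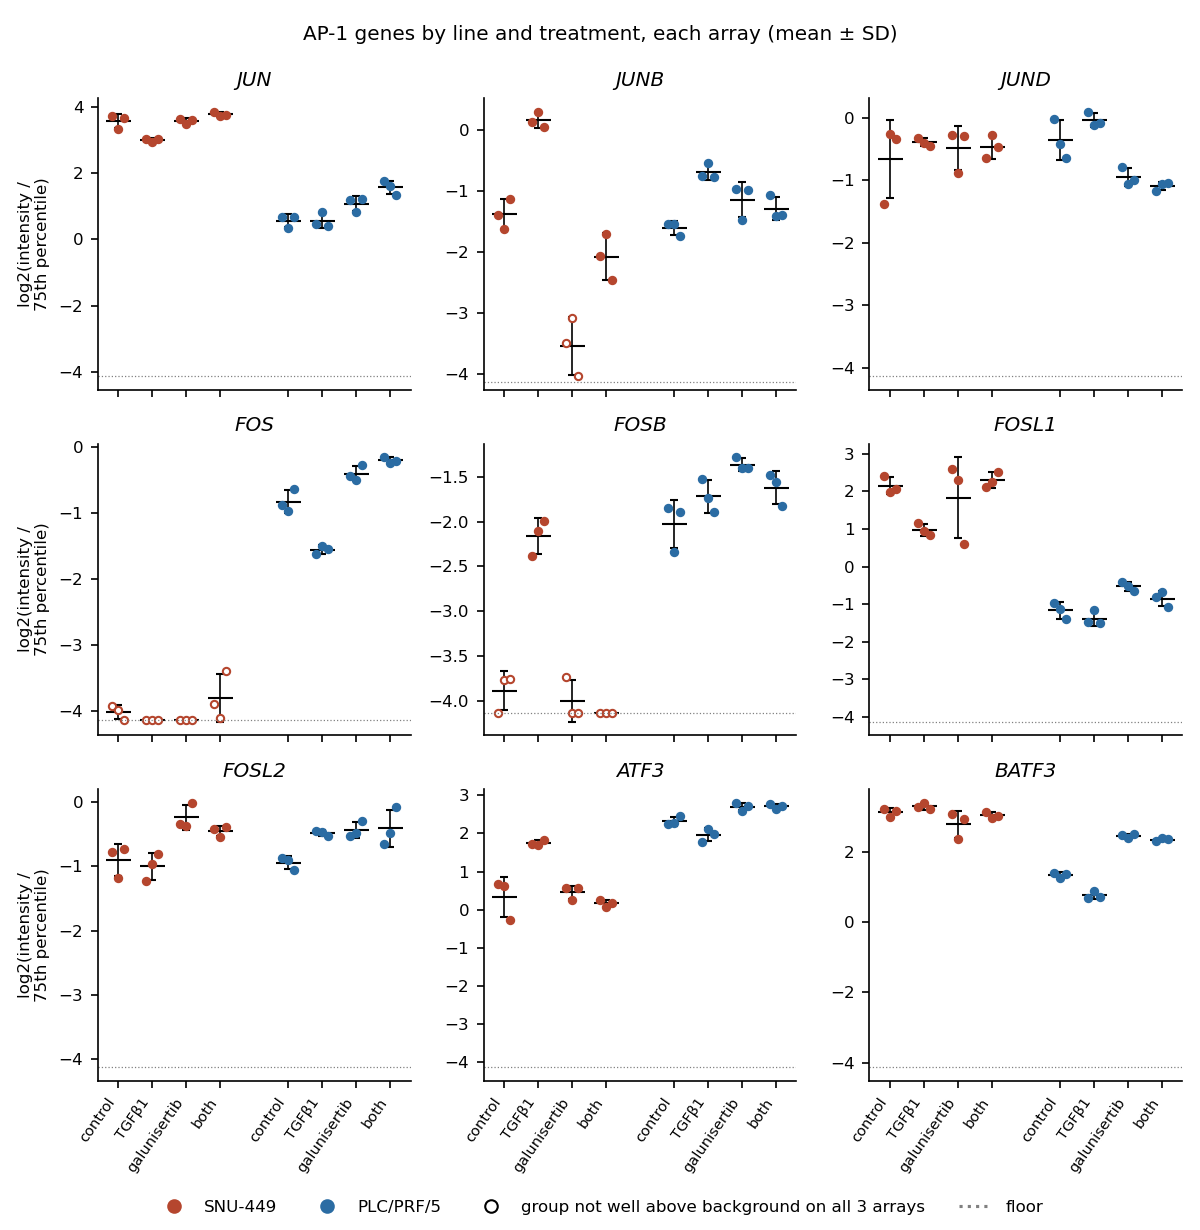
Levels of the 9 AP-1 genes on each of the 24 arrays, as log2 of intensity over the 75th percentile of the array, by line and treatment; points are arrays, bars the mean ± SD (n = 3), open points groups that were not well above background on all 3 arrays, and the dotted line the floor. *JUNB* on the galunisertib arrays of SNU-449 fell to -3.54, and *FOS* stayed near the floor in that line.

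In control cells, *FOS*, *FOSB* and *ATF3* had a higher expression in PLC/PRF/5 and *JUN*, *FOSL1* and *BATF3* a higher expression in SNU-449, whereas *JUNB*, *JUND* and *FOSL2* did not pass the test. With limma over all 24 arrays, 6 of 9 genes had an adjusted p below 0.05, 3 in each direction, beside 68.5% of 17902 genes tested, 33.9% higher and 34.6% lower in PLC/PRF/5. All 6 also passed the limits drawn in the study (more than 2-fold, unadjusted P below 0.001), which 34.3% of genes did. *JUN*, the founding member of the family, stood at 3.73, 3.31 and 3.66 on the SNU-449 control arrays and at 0.66, 0.34 and 0.68 on those of PLC/PRF/5. The lines did not overlap, and *JUN* was 8.01-fold lower in PLC/PRF/5 (log2 difference -3.00, standard error (SE) 0.14, adjusted p = 1.6e-13).

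*FOSL1*, which encodes Fra-1, a Fos protein often found in invasive tumour cells, gave 2.40, 1.98 and 2.07 in SNU-449 and -0.96, -1.14 and -1.41 in PLC/PRF/5. Its difference was -3.32 (SE 0.32), with an adjusted p of 2.0e-08. *BATF3*, a partner of Jun proteins best known in dendritic cells, was lower in PLC/PRF/5 by a log2 difference of -1.78 (SE 0.13, adjusted p = 2.6e-10). *FOS* stood at -0.88, -0.97 and -0.63 in PLC/PRF/5 and at -3.93, -3.98 and the floor in SNU-449, where 1 of 3 control arrays was well above background. The log2 difference of 3.19 (SE 0.13, adjusted p = 1.8e-14) therefore rests on a level near background in SNU-449, as does that of *FOSB*, 1.86 (SE 0.15, adjusted p = 1.3e-09), with 2 of 3 control arrays well above background. *FOS* passed the filter only through groups of PLC/PRF/5, where it was high. Normexp background correction, which adds an offset to every spot, gave 1.35 for *FOS* and 0.64 for *FOSB*, and *FOSB* had 2.96 with the deposited normalized table. *ATF3*, a bZIP gene induced by stress, was 3.94-fold higher in PLC/PRF/5 by its brightest probe, A_23_P34915 (log2 difference 1.98, SE 0.17, adjusted p = 3.2e-09). The other *ATF3* probes gave 1.07 (A_33_P3214105), 0.76 (A_24_P33895) and 0.37 (A_33_P3214096), the last of which did not pass (adjusted p = 0.16). Probe A_24_P33895 was well above background on 0 of 3 SNU-449 and 1 of 3 PLC/PRF/5 control arrays. It passed the filter only through the PLC/PRF/5 group given both agents, so its 0.76 is no independent support. The mean of all *ATF3* probes, this one included, was 1.04. The intervals of the others were -0.68 to 0.22 for *JUNB*, -0.18 to 0.78 for *JUND* and -0.35 to 0.26 for *FOSL2*. Scaling arrays to their median gave *JUNB* a call as lower in PLC/PRF/5 (log2 difference -0.60, adjusted p = 0.035).

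TGFβ1 alone raised *JUNB*, *FOSB* and *ATF3* and lowered *JUN* in SNU-449. These were 4 of the 8 genes tested, beside 10.5% of 16101 genes (5.73% higher, 4.75% lower), and the 3 that rose also passed the limits of the study, which 1.45% of genes did as higher. *FOS* was not tested in this line, since it was not well above background on all arrays of any group. *JUNB*, a Jun protein that often opposes JUN and a known early target of TGFβ, stood at -1.39, -1.62 and -1.12 on the control arrays and at 0.14, 0.30 and 0.04 with TGFβ1. All TGFβ1 arrays lay above all controls, and the rise was 2.90-fold (log2 difference 1.54, SE 0.25, adjusted p = 0.0033), with 0.96 after normexp background correction. Without replicate 1 the value was the same to the decimals given, 1.54, but the adjusted p was 0.1.

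*FOSB* lay at the floor, -3.76 and -3.75 on the control arrays and at -2.38, -2.11 and -2.00 with TGFβ1. It rose by a log2 difference of 1.72 (SE 0.15, adjusted p = 6.9e-05), and because 1 control array was at the floor, the size depends on where the floor was set. In this line the gene passed the filter only through the TGFβ1 group, where it was high. Its call, counted above, is therefore a description and no independent support. The difference was 0.52 with normexp background correction, which passed, and 2.91 with the deposited normalized table, which missed the test (adjusted p = 0.076). *ATF3* by its brightest probe stood at 0.67, 0.61 and -0.26 in control cells and at 1.72, 1.69 and 1.83 with TGFβ1. The third control array was the lowest, and the groups did not overlap (log2 difference 1.41, SE 0.21, adjusted p = 0.0021). *JUN* went from 3.73, 3.31 and 3.66 to 3.03, 2.94 and 3.03. It fell by 0.56 on the log2 scale (SE 0.11, adjusted p = 0.0086), and missed the test without replicate 1 (adjusted p = 0.12), without replicate 3 (0.17) and with arrays scaled to their median (0.37).

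*FOSL1* stood at 1.15, 0.96 and 0.83 with TGFβ1, below all 3 controls, with a log2 difference of -1.17 (SE 0.41) and an adjusted p of 0.11. On the galunisertib arrays, which are not part of the comparison but share the fit, replicate 3 lay at 0.60 beside 2.59 and 2.31. With only the groups compared in the fit the adjusted p was 0.0044, and without replicate 3 it was 0.034. *JUND*, *FOSL2* and *BATF3* had log2 differences of 0.26, -0.10 and 0.17 that did not pass, and control replicate 1 of *JUND* lay at -1.38 beside -0.26 and -0.35.

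Galunisertib alone lowered *JUNB* in SNU-449 and raised *FOSL2*, with 2 of 8 genes called beside 7.43% of all genes (5.35% higher, 2.08% lower). *JUNB* stood at -3.50, -3.08 and -4.04, below every control, and 2 of 3 of these arrays were well above background. The fall was 4.48-fold (log2 difference -2.16, SE 0.25, adjusted p = 0.0011), and was also past the study's limits, which 0.64% of genes were as lower. Its size depended on the background correction, with a log2 difference of -0.72 after normexp, and it missed the test without replicate 1 (adjusted p = 0.078). *FOSL2*, which encodes Fra-2, stood at -0.78, -1.18 and -0.73 in control cells and at -0.33, -0.36 and -0.01 with galunisertib. Its rise of 0.66 (SE 0.15, adjusted p = 0.03) missed the test whichever replicate was left out (adjusted p 0.15 to 0.17) and with arrays scaled to their median (0.21). The interval for *JUN* was -0.24 to 0.25 and that for *ATF3* -0.35 to 0.60. *JUND* (0.17), *FOSB* (-0.11), *FOSL1* (-0.32) and *BATF3* (-0.33) did not pass either.

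Adding galunisertib to TGFβ1 in SNU-449 lowered *JUNB*, *FOSB* and *ATF3* and raised *JUN* and *FOSL2*. These 5 of 8 genes stood beside 17.1% of all genes (9.72% higher, 7.35% lower), and the 3 that fell were past the study's limits, with 2.04% of all genes. *JUNB* stood at -2.07, -1.70 and -2.46 with both agents and was 4.72-fold lower than with TGFβ1 alone (log2 difference -2.24, SE 0.25, adjusted p = 0.0002), with -1.35 after normexp. With both agents *FOSB* was well above background on 0 of 3 arrays and was at least 3.58-fold lower (adjusted p = 1.6e-05), a bound that holds for the main scaling, since normexp gave a log2 difference of -0.52. This fall, counted among the 5, is a description, since *FOSB* passed the filter in this line only through the TGFβ1 group. *ATF3* stood at 0.25, 0.08 and 0.18, a log2 difference of -1.57 (SE 0.21, adjusted p = 0.00064). *JUN* stood at 3.85, 3.71 and 3.76, and rose by 0.77 (SE 0.11, adjusted p = 0.00087). *FOSL2* rose by 0.55 (SE 0.15, adjusted p = 0.033), and missed the test whichever replicate was left out (0.1 to 0.25). *FOSL1* had a difference of 1.32 with an adjusted p of 0.054, and of 0.0022 with only the groups compared in the fit. *JUND* (-0.07) and *BATF3* (-0.25) did not pass.

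In galunisertib-treated SNU-449 cells, TGFβ1 raised *JUNB* alone among the 8 genes tested, beside 1.9% of all genes (0.938% higher, 0.963% lower). The level of *JUNB* was -2.08 ± 0.38 (SD, n = 3) with both agents and -3.54 ± 0.48 (SD, n = 3) with galunisertib, a 2.76-fold rise (log2 difference 1.46, SE 0.25, adjusted p = 0.019). The 4 groups of SNU-449 were thus ordered as TGFβ1, control, both agents and galunisertib for this gene, from high to low, and neighbouring groups did not overlap. Control and both agents were not tested against each other. The call in galunisertib-treated cells was lost whichever replicate was left out (adjusted p 0.059 to 0.26) and with normexp background correction (log2 difference 0.34, adjusted p = 0.13). Leaving a replicate out also cut the calls over all genes, from 306 to between 30 and 74. For *FOSB* the interval of this difference was -0.47 to 0.20, and for *ATF3* it was -0.76 to 0.18. The other differences were 0.21 for *JUN*, 0.02 for *JUND*, 0.47 for *FOSL1*, -0.21 for *FOSL2* and 0.25 for *BATF3*.

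**Figure D2:**
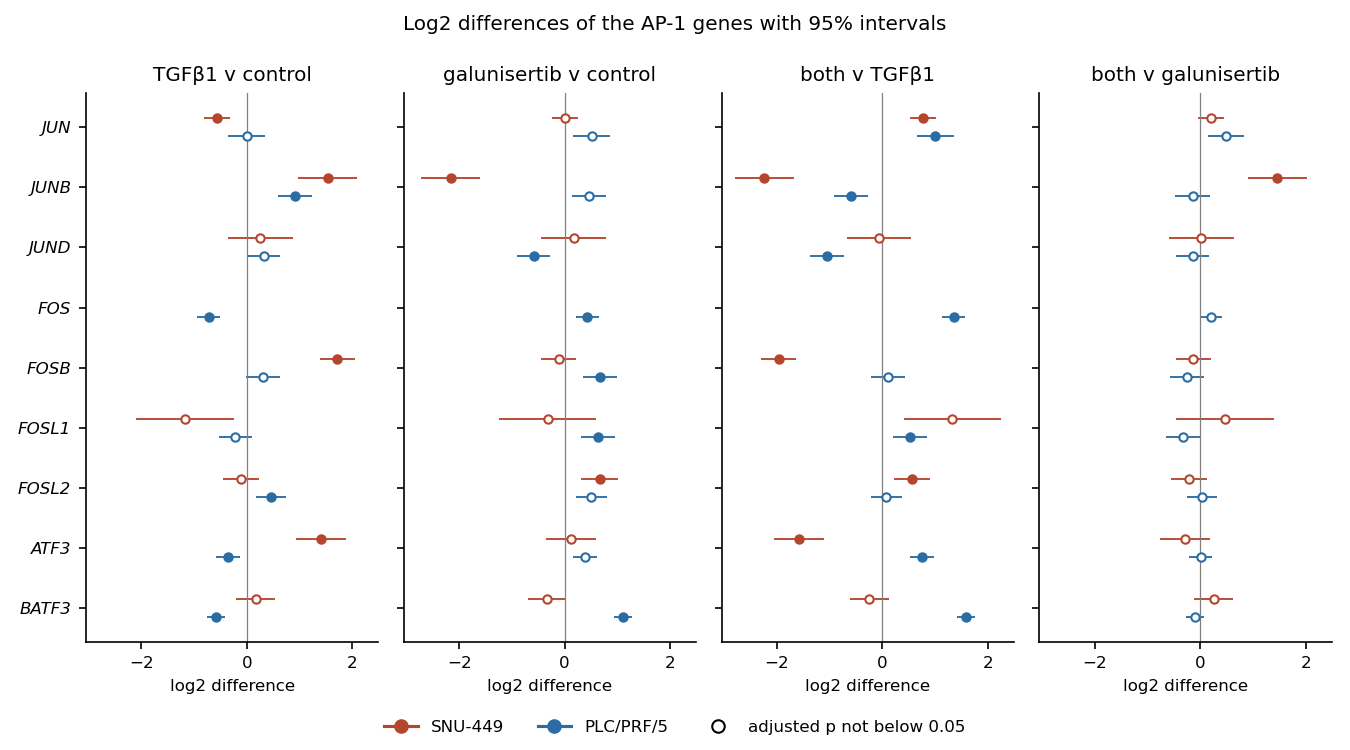
Log2 differences of the AP-1 genes in 4 comparisons, with 95% intervals from limma, for SNU-449 and PLC/PRF/5; filled points have an adjusted p below 0.05, and *FOS* was not tested in SNU-449. *JUNB* rose with TGFβ1 in both lines, by 1.54 and 0.92.

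TGFβ1 alone raised *JUNB* and *FOSL2* in PLC/PRF/5 and lowered *FOS*, *BATF3* and *ATF3*, 5 of 9 genes beside 13.5% of 16684 genes (6.27% higher, 7.24% lower). None of the 9 was past the study's limits, which 1.1% of genes were. *JUNB* stood at -1.54, -1.54 and -1.74 in control cells and at -0.76, -0.54 and -0.77 with TGFβ1. It rose 1.89-fold (log2 difference 0.92, SE 0.15, adjusted p = 0.0028), with 0.40 after normexp, and without replicate 3 it missed the test (0.074). *FOS* went from -0.88, -0.97 and -0.63 to -1.62, -1.49 and -1.54 and fell by 0.72 on the log2 scale (SE 0.10, adjusted p = 0.001). *BATF3* went from 1.40, 1.26 and 1.37 to 0.68, 0.89 and 0.73 and fell by 0.58 (SE 0.08, adjusted p = 0.00089). These falls missed the test with arrays scaled to their median (adjusted p 0.092 for *FOS* and 0.2 for *BATF3*), and that of *BATF3* without replicate 3 (0.064).

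The changes of *FOSL2* (log2 difference 0.46, adjusted p = 0.041) and *ATF3* (-0.35, adjusted p = 0.042) were smaller, and with the replicate number as a block their adjusted p was 0.056 and 0.065, which left 3 calls. Without replicate 1, whose control array had the lowest 75th percentile, the same 2 genes missed the test (0.13 and 0.16). Of 17 settings run, 9 lost the call of *FOSL2* and 13 that of *ATF3*. *JUN* had the interval -0.35 to 0.34, and *JUND* (0.32), *FOSB* (0.31) and *FOSL1* (-0.22) did not pass.

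Galunisertib alone raised *BATF3*, *FOSB*, *FOSL1* and *FOS* and lowered *JUND* in PLC/PRF/5, 5 of 9 genes beside 5.42% of all genes (3.67% higher, 1.75% lower). *BATF3* stood at 2.48, 2.38 and 2.50, above all controls, and rose 2.15-fold (log2 difference 1.11, SE 0.08, adjusted p = 0.00017). It was the 1 gene past the study's limits, with 0.156% of all genes as higher. Without replicate 3 its value was 1.10 and its adjusted p 0.087, and without replicate 1 it was the 1 gene called. *FOSB* rose by 0.66, *FOSL1* by 0.64 and *FOS* by 0.43, and *JUND* fell by 0.59 on the log2 scale (adjusted p 0.03 to 0.041). These 4 calls were lost whichever replicate was left out. The calls over all genes fell then too, from 904 to 47, 54 and 2 without replicate 1, 2 and 3. *JUN* (0.51), *JUNB* (0.46), *FOSL2* (0.51) and *ATF3* (0.39) did not pass (adjusted p 0.051 to 0.097). In all 9 genes the galunisertib arrays did not overlap the controls, as held for 27.1% of all genes. The difference was positive for all but *JUND*, and the share of all genes with a positive difference was not counted. The median difference of the 9 genes was 0.51, and that of all genes tested was 0.05. With arrays scaled to their median, 1 of the 9 genes was called, and the median of all genes was 0.14.

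When galunisertib was added to TGFβ1 in PLC/PRF/5, *BATF3*, *FOS*, *JUN*, *ATF3* and *FOSL1* rose and *JUND* and *JUNB* fell. These were 7 of 9 genes, in a comparison that called 39.1% of all genes (25.8% higher, 13.3% lower). *BATF3*, *FOS*, *JUN* and *JUND* were past the study's limits, which 3.09% of genes were. *BATF3* stood at 2.30, 2.38 and 2.35, a 2.99-fold rise (log2 difference 1.58, SE 0.08, adjusted p = 5.6e-07). *FOS* stood at -0.15, -0.24 and -0.21, the highest of its 8 groups, and rose 2.55-fold (log2 difference 1.35, SE 0.10, adjusted p = 6.0e-06). *JUN* stood at 0.46, 0.81 and 0.41 with TGFβ1 and at 1.75, 1.60 and 1.35 with both agents, a log2 difference of 1.01 (SE 0.16, adjusted p = 0.00069).

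*JUND*, a Jun gene that is expressed in many resting cells, stood at 0.10, -0.12 and -0.09 with TGFβ1 and at -1.17, -1.06 and -1.05 with both agents. It fell by 1.05 on the log2 scale (SE 0.14, adjusted p = 0.00031), opposite to *JUN*. *ATF3* rose by 0.75 (SE 0.10, adjusted p = 0.00029) by its brightest probe and by 0.36 over the mean of its probes. The fall of *JUNB*, 0.60 on the log2 scale, was larger than the spread, with all 3 arrays below the TGFβ1 range (adjusted p = 0.009), and it missed the test without replicate 2 (0.059) or 3 (0.076). *FOSL1* rose by 0.53 (adjusted p = 0.015), and missed it without replicate 1 (0.14) or 2 (0.067). *FOSB* (0.10) and *FOSL2* (0.07) did not pass. In galunisertib-treated PLC/PRF/5 cells, TGFβ1 changed 0 of the 9 genes by limma, while 8.55% of all genes (3.59% higher, 4.96% lower) were called. A test of each gene by itself, without a spread shared between genes, called 0 of all 16120 genes there and so says nothing about the 9. The largest differences by limma were 0.49 for *JUN* (adjusted p = 0.076) and -0.33 for *FOSL1* (adjusted p = 0.16), and neither passed. The others were -0.15 for *JUNB*, -0.14 for *JUND*, 0.20 for *FOS*, -0.26 for *FOSB*, 0.03 for *FOSL2*, 0.01 for *ATF3* and -0.11 for *BATF3*.

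The contrast of the TGFβ1 effects between the lines, over all 24 arrays, called 4 of 9 genes, beside 8.62% of 17902 genes (4.29% higher in SNU-449, 4.33% lower). The effect in SNU-449 was higher for *ATF3* by 1.76 (SE 0.24, adjusted p = 6.3e-05) and for *FOSB* by 1.41 (SE 0.21, adjusted p = 0.00018). The value of *ATF3* is that of its brightest probe, A_23_P34915. Its other probes gave 0.19, 0.42 and 0.55, none of which passed, and the mean over its probes gave 0.73 (adjusted p = 0.013). The 0.42 is that of A_24_P33895, which was well above background on 7 of 24 arrays and enters that mean. The value of *FOSB* was 0.43 with normexp (adjusted p = 0.13) and 2.59 with the deposited normalized table (adjusted p = 0.16). The other differences were 0.75 for *BATF3* (adjusted p = 0.012) and 0.60 for *FOS* (adjusted p = 0.045), and *FOS* was near background in SNU-449. *FOS* passed the filter only through groups of PLC/PRF/5, where TGFβ1 gave -0.72. All 3 TGFβ1 arrays of SNU-449 were at the floor, so a fall there could not be seen. The value of *FOS* is thus no measure of a difference in response. Of the settings run, 11 of 15 lost the call of *FOS* and 5 of 16 that of *BATF3*. For *JUNB* the difference was 0.62 with an interval of -0.01 to 1.26, so a larger rise in SNU-449 was not shown. *JUN* (-0.56), *JUND* (-0.06), *FOSL1* (-0.96) and *FOSL2* (-0.57) did not pass.

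The same contrast for galunisertib called 3 of 9 genes, beside 5.87% of all genes (3.43% higher in SNU-449, 2.44% lower). *JUNB* differed by -2.63 (SE 0.30, adjusted p = 2.5e-05), its log2 differences being 0.46 in PLC/PRF/5 (not past the test) and -2.16 in SNU-449. After normexp it differed by -1.01. *BATF3* differed by -1.44 (SE 0.18, adjusted p = 8.0e-05), with -0.33 in SNU-449 and 1.11 in PLC/PRF/5. *FOSB* differed by -0.78 (adjusted p = 0.037), a value that was -0.20 with normexp background correction (adjusted p = 0.55) and that missed the test without replicate 2 (0.42) or 3 (0.26). Of 15 settings run, 11 lost the call of *FOSB*. Its log2 differences were -0.11 in SNU-449 and 0.66 in PLC/PRF/5. In SNU-449, 1 of 3 control and 2 of 3 galunisertib arrays were at the floor, so a fall there could hardly be seen. *JUN* (-0.51), *JUND* (0.76), *FOS* (-0.55), *FOSL1* (-0.96), *FOSL2* (0.16) and *ATF3* (-0.27) did not pass.

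The 4 probes of *ATF3* did not behave alike in SNU-449. The brightest, A_23_P34915, gave the values above. With TGFβ1, the log2 difference of probe A_33_P3214096 was -0.13 (SE 0.26) and that of A_33_P3214105 was 0.05 (SE 0.32), and neither passed. With galunisertib added to TGFβ1, they gave 0.04 (SE 0.26) and -0.87 (SE 0.32, adjusted p = 0.1). Probe A_24_P33895 was well above background on 7 of 24 arrays and was not tested in this line. The mean over the tested probes differed by 0.44 with TGFβ1 and missed the test (adjusted p = 0.15). In PLC/PRF/5, TGFβ1 gave -0.35, -0.32 and -0.50 on the 3 brighter probes, which all pointed down. Which transcripts each probe reads was not tested.

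**Figure D3:**
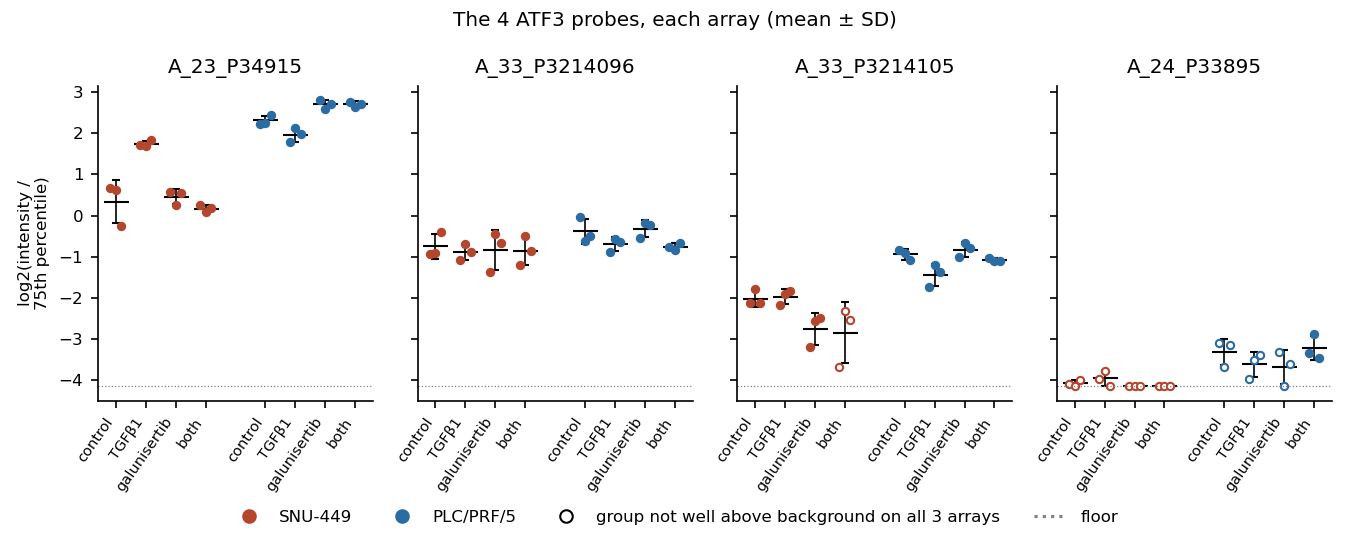
Levels of the 4 *ATF3* probes on each array, as log2 of intensity over the 75th percentile, by line and treatment; bars are the mean ± SD (n = 3), and open points are groups not well above background on all 3 arrays. The rise with TGFβ1 in SNU-449, 1.41 on the log2 scale, is that of A_23_P34915, beside -0.13 on A_33_P3214096 and 0.05 on A_33_P3214105.

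Genes around AP-1 were counted in 4 lists. Of all genes in SNU-449, 10.5% were called with TGFβ1, 7.43% with galunisertib and 17.1% with galunisertib added to TGFβ1, and in PLC/PRF/5 the shares were 13.5%, 5.42% and 39.1%. The counts below stand beside these. Among 15 MAP kinase genes, *MAP2K6* and *MAP2K3*, whose products activate p38, and *MAP3K5*, which encodes the stress kinase ASK1, were lower with TGFβ1 and higher with galunisertib in SNU-449. There 1 rose and 4 fell with TGFβ1, with log2 differences of -1.20 for *MAP2K6* (adjusted p = 0.00034), -1.16 for *MAP3K5* and -0.69 for *MAP2K3*. With galunisertib alone 4 rose and 11 did not pass, and with galunisertib added to TGFβ1 5 rose and 1 fell, led by *MAP2K6* at 1.97 and *MAP3K5* at 1.76. In PLC/PRF/5, 14 were tested, and 2 fell with TGFβ1 (*MAP2K6* -1.01, *MAP2K3* -0.40), 3 rose with galunisertib and 6 rose and 1 fell with galunisertib added to TGFβ1, where 25.8% of all genes were higher and 13.3% lower. The list medians, from -0.05 to 0.22 in these 6 comparisons, lay near those of all genes, from -0.04 to 0.09.

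Of 16 other immediate early genes, 10 were tested in SNU-449 and 13 in PLC/PRF/5. In SNU-449, *EGR2* (1.14), *GADD45B* (1.08) and *IER3* (0.65) rose with TGFβ1 and *CCN1* (-0.49) fell. With galunisertib alone 3 fell, led by *GADD45B* (-1.09) and *IER3* (-1.08), and with galunisertib added to TGFβ1 1 rose and 5 fell. In PLC/PRF/5, 6 of 13 rose with galunisertib and the others did not pass, led by *EGR4* (1.18), *IER3* (0.69) and *EGR1* (0.66). With TGFβ1 2 rose and 2 fell, and *EGR1*, a zinc finger gene induced by the same signals as *FOS*, had a log2 difference of -1.20 (adjusted p = 4.6e-05). With galunisertib added to TGFβ1 7 rose and 1 fell, beside 25.8% of all genes higher and 13.3% lower, and *EGR1* had the largest difference, 2.32 (SE 0.10, adjusted p = 2.8e-07). For *IER3*, *EGR4* and *EGR1* the effect of galunisertib in SNU-449 minus that in PLC/PRF/5 was -1.77, -1.18 and -1.15.

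Among 20 genes known as AP-1 targets, 17 were tested in SNU-449, and 7 rose and 4 fell with TGFβ1. Among those that rose were *IL11*, a cytokine (2.55, adjusted p = 0.0049), and *MMP10*, a matrix protease (2.35). *EREG* (-1.55), a ligand of the EGF receptor, fell. Galunisertib alone raised 3 and lowered 4, with *IL11* at -5.04, and added to TGFβ1 it raised 3 and lowered 7. In PLC/PRF/5, 13 were tested, and 1 rose and 3 fell with TGFβ1, where *HBEGF* had -0.81 and *AREG* -0.80. Galunisertib alone raised 4, among them the urokinase receptor gene *PLAUR* (1.35), *LIF* (1.16) and *HBEGF* (0.95), and the other 9 did not pass. With galunisertib added to TGFβ1, again beside 25.8% higher and 13.3% lower among all genes, 7 rose and 1 fell, led by *AREG* (1.77), *PLAUR* (1.72) and *HBEGF* (1.35).

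Of 10 other bZIP partners and relatives, 8 were tested in SNU-449. *MAF* rose with TGFβ1 (1.48, adjusted p = 0.0018) and fell when galunisertib was added to it (-2.26, adjusted p = 7.1e-05), and *MAFF* fell with TGFβ1 (-0.60). In PLC/PRF/5, where 9 were tested, *MAFF* fell with TGFβ1 (-0.80) and rose with galunisertib added to it (0.99, adjusted p = 0.00017). There, 3 rose and 3 fell with galunisertib added to TGFβ1, including *BATF2* (0.66).

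**Figure D4:**
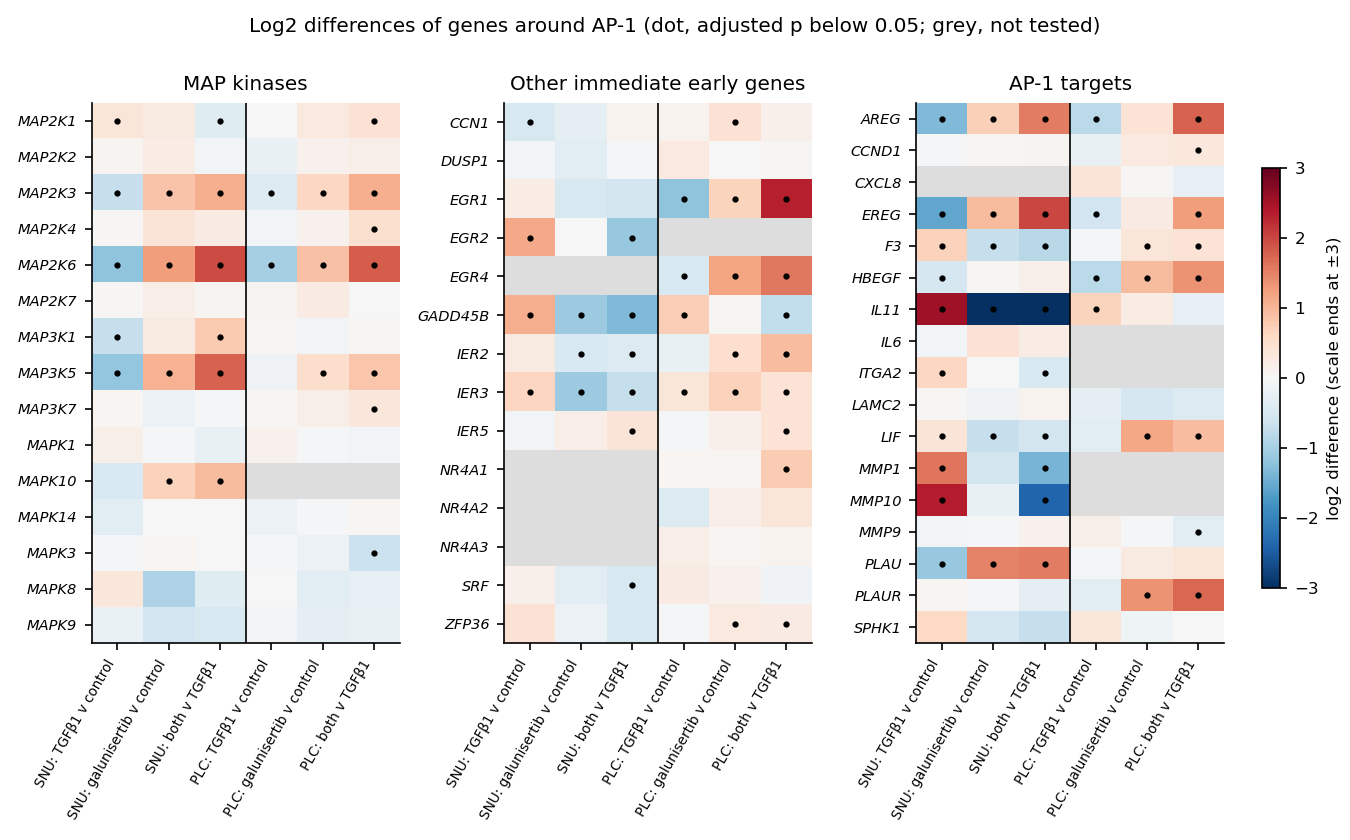
Log2 differences (colour, scale ends at ±3) of MAP kinase genes, other immediate early genes and most AP-1 targets in 3 comparisons for each line; dots mark an adjusted p below 0.05 and grey cells were not tested. *EGR1* had 2.32 with both agents against TGFβ1 in PLC/PRF/5, and *IL11* had -5.04 with galunisertib in SNU-449.

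The genes whose pattern was most like that of an AP-1 gene were sought among 12818 genes well above background on all 24 arrays, by Pearson's r of levels centred within each line. The points share the arrays and their scaling, and the values are descriptions. For *BATF3* they were *NTMT1* (0.94), *ITPRIP* (0.94) and *SPNS2* (0.93), and for *JUN* they were *NFE2L3* (0.92), *DDX18* (0.91) and *LRP8* (0.90). *ATF3* was most like *EEPD1* (0.90), *SNAI1* (0.90) and *PLXND1* (0.89). *JUND* was most like *FOXJ2* (0.88), *APBB1* (0.84) and *DHRS3* (0.84), and *FOSL1* was most like *EHD1* (0.88), *ASIC1* (0.87) and the long noncoding lnc-C11orf1-1 (0.86). *FOSL2* had the weakest match, with lnc-WNT1-2 (0.81), *SLC35F5* (0.80) and *PAM* (0.79). Between the AP-1 genes themselves r ran from -0.68 for *JUND* with *BATF3* to 0.59 for *JUN* with *FOSL1*. *JUNB*, *FOS* and *FOSB* were not well above background on all arrays and were left out.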

How the data were processed

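Total RNA of 24 cultures was labelled with Cy3 and hybridised to Agilent SurePrint G3 arrays. The authors deposited the scanner output of Agilent Feature Extraction (10.7.3.1 per the submitters' processing notes), whose processed signal is an intensity after background subtraction, without normalization across arrays. They also deposited a GeneSpring table of log2 values, used as an alternative. No column was left without a sample.

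Flagged spots (111 to 216 per array) and control spots were left out, 0 spots were saturated, spots of a probe were averaged, and intensities were divided by the 75th percentile of their array. Values under 5.70% of it (the array-wise weakest spot well above background, median of 24 arrays, a floor the plan did not name) were set to that floor, and log2 was taken. Accessions named 31104 of 58201 probes by RefSeq, and 10719 had a LNCipedia name. A probe was tested if all arrays of at least 1 group of the fit had it well above background, and a gene was read by its brightest tested probe. Groups were compared with limma 3.58.1 in R 4.3.3, over the 12 arrays of a line or all 24, with Benjamini-Hochberg adjustment over all genes tested. The number of arrays limits the precision. The random variance t-test of the methods was replaced by limma, which also shares the spread between genes, with a plain t-test as an alternative; steps were tested on simulated data.

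The members, lists and tests were chosen with earlier results of these data known. The rule names all 9 genes in every comparison, up to 3 called genes of each list by size, of which the text prints a part, and the 3 genes most like each member. A gene named beyond these was chosen after its values were seen, and the values of some listed genes are not reported here. Replicate numbers paired the samples, with each correlation of deviations from the group means above 0.1, for TGFβ1 against control (0.13 to 0.22 in SNU-449, 0.17 to 0.31 in PLC/PRF/5) and for galunisertib added to TGFβ1 in SNU-449 (0.10 to 0.27). The number is also the slide. The scanner files used here hold median signals, so normexp was run on median signal and background with an offset of 50. Promoters were read from the RefSeq table with Python 3.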

Additional observations from a re-analysis of the deposited data

Results flagged for a closer look

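The effects of a treatment that differed between the lines, by the contrast of the effects, are given as values. For TGFβ1 the effect in SNU-449 minus that in PLC/PRF/5 was 1.76 for *ATF3* by its brightest probe, 1.41 for *FOSB*, 0.75 for *BATF3* and 0.60 for *FOS*. The other *ATF3* probes gave 0.19, 0.42 and 0.55 and did not pass, and the value of *FOSB* ran from 0.43 to 2.59 over the settings. The *ATF3* probe with 0.42, A_24_P33895, was well above background on 7 of 24 arrays. For galunisertib it was -2.63 for *JUNB*, -1.44 for *BATF3* and -0.78 for *FOSB*. *FOS* was well above background on 4 of the 12 arrays of SNU-449 and *FOSB* on 6, so that the floor enters their differences. For *FOS*, which passed the filter only through groups of PLC/PRF/5, a fall with TGFβ1 in SNU-449 could not be seen.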

How the results depend on the processing

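Across 17 other settings no called change of an AP-1 gene turned its direction, and of 42 called changes 15 kept their call in every setting in which the gene was tested. Among these were *JUNB* and *ATF3* with galunisertib added to TGFβ1 in SNU-449, and *BATF3*, *FOS*, *JUN* and *JUND* with it in PLC/PRF/5. The 15 also count *FOS* and *FOSB* between the control cells, where both lay near background in SNU-449. The number of AP-1 genes called moved as follows, and the cause was not tested except where given. Smaller moves of a count are listed only in part. TGFβ1 against control in SNU-449 gave 4, and 2 under the strict filter, in which every array of the fit had to be well above background and which leaves *JUNB* and *FOSB* untested. It gave 3 with median scaling, the mean of probes, the authors' table and a plain t-test. The study's limits and no scaling also gave 3, and only the groups compared gave 5. Galunisertib against control in SNU-449 gave 2, then 1 with median scaling, with the strict filter, without a filter, with only the groups compared, with the study's limits and with no scaling between arrays (a setting chosen after seeing the data), and 0 by a plain t-test. Galunisertib added to TGFβ1 in SNU-449 gave 5, and 3 with median scaling, with the authors' table and with the study's limits. It gave 6 with normexp and with only the groups compared, and 4 with the strict filter, without a filter and with no scaling. TGFβ1 added to galunisertib in SNU-449 gave 1, and 0 with normexp, with the strict filter, without a filter, with only the groups compared and by a plain t-test, the last pair of which called only 2 and 0 of 15354 genes in all. TGFβ1 against control in PLC/PRF/5 gave 5, then 3 with normexp, without a filter and with the replicate block, 1 with median scaling and no scaling, and 0 with the study's limits. Galunisertib against control in PLC/PRF/5 gave 5, then 2 with normexp and 1 with median scaling, without a filter, with only the groups compared, by a plain t-test, with the study's limits and with no scaling. It gave 7 with the strict filter. Galunisertib added to TGFβ1 in PLC/PRF/5 gave 7, and 4 with the study's limits and with no scaling. The contrast of the TGFβ1 effects between the lines called 4 genes, with *FOS* near background among them, and 2 with median scaling, with the strict filter, with the authors' table, with the study's limits and with no scaling. The contrast of the galunisertib effects called 3, and 1 with the strict filter, while 11 of 15 settings lost the call of *FOSB*. With 1 replicate left out, the counts of the comparisons in the order given ran from 2 to 4, 0 to 1, 4 to 5, 0 to 0, 1 to 3, 0 to 1, 5 to 6, 2 to 3 and 2 to 3. The calls over all genes also fell in every comparison then, so a call lost in this way need not be particular to its gene. TGFβ1 added to galunisertib in PLC/PRF/5 gave 0 and the control cells 6 to 7 throughout, apart from 4 with the strict filter. In the comparisons whose replicates were paired the block changed no other call. Median scaling moved the median log2 difference of all genes by over 0.1 in several comparisons, to -0.28 between the control cells of the lines. Apart from the study's limits, calls over all genes moved from 1688 to a range of 562 to 2250 for TGFβ1 against control, from 1196 to a range of 85 to 1396 for galunisertib against control, from 2748 to a range of 1053 to 3493 for galunisertib added to TGFβ1 and from 306 to a range of 0 to 585 for TGFβ1 added to galunisertib in SNU-449. They moved in PLC/PRF/5, in the same order, from 2254 to a range of 456 to 2464, from 904 to a range of 2 (without replicate 3) to 985, from 6520 to a range of 1010 to 7003 and from 1426 to a range of 0 to 1826. For the effects that differed between lines they moved from 1543 to a range of 404 to 2126 (TGFβ1) and from 1051 to a range of 180 to 1226 (galunisertib). Intensity near background limits *FOS* and *FOSB* in SNU-449.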
